A study of Bos taurus with 12 samples.

Results

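The genes described here are the amino acid and glucose transporters of 8 solute carrier families on a bovine expression array: SLC1A, SLC2A, SLC3A, SLC6A, SLC7A, SLC36A, SLC38A and SLC43A. Every probe that was no control spot and whose gene name began with a family name and a digit was taken, and each gene was represented by the probe with the highest mean signal over the 12 arrays. This gave 63 transporter genes with 124 probes, of 15515 genes that could be named in RefSeq and 43653 probes in all. The 63 include carriers of other substrates, such as SLC2A13 for myo-inositol, SLC6A2 for noradrenalin, SLC6A4 for serotonin and SLC6A8 for creatine. The same name pattern also took in SLC7A6OS, a neighbour of SLC7A6 on the opposite strand that codes for no transporter. It was left out of every count below.

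The samples were endometrial biopsies (the lining of the uterus) from 3 cows that were given povidone-iodine (PVP-I, an iodine antiseptic) into the uterus. Each cow was biopsied on days 0, 2, 7 and 14 after the treatment, alternately from the left and the right horn, which gave 3 biopsies a day and 12 in all. If each biopsy changed horn, day 7 shares its horn with day 0, and days 2 and 14 come from the other. The horn, earlier biopsies and the time elapsed in the oestrous cycle cannot be told apart from the day. All 3 cows were treated, so day 0 of the same cows is the only baseline, and the labels used here do not say whether the day 0 biopsy came before or after the infusion. Source labels describe the cows as fertile, and give no age, breed or stage of the oestrous cycle.

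Glucose transporters of the SLC2 family let hexoses pass along their gradient, and cells with a high demand for glucose carry more of them. Amino acid transporters fall into importers that are driven by the sodium gradient, such as the SLC1, SLC6 and SLC38 proteins, and exchangers of the SLC7 family, which swap an inner amino acid for an outer one. Most SLC7 exchangers reach the cell surface only when joined to a heavy chain of the SLC3 family. In the uterus these carriers supply the dividing cells of the endometrium and fill the fluid that nourishes the early embryo.

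Signals are log2 values relative to the 75th percentile of the same array, so 0 is the level below which 75% of probes lie, and a difference of 1 is a doubling of the signal. Levels of different genes were read with different probes and are not set against each other. A probe was tested if it was well above background on at least 3 of the 12 arrays, and a change was called when limma's adjusted p, over all 33539 probes tested, was under 0.05. Of the 63 transporter genes 46 were tested, 30 of them above background on all 12 arrays. Another 7 genes were above background on 1 or 2 arrays, and 10 on none: SLC1A6, SLC2A2, SLC3A1, SLC6A2, SLC6A7, SLC6A18, SLC7A1, SLC7A9, SLC7A11 and SLC7A13. SLC36A1 and SLC43A1 are not among the gene names of the array.

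The records of the scanner files and the columns of the deposited value table disagree on which array is which sample for 10 of the 12 arrays. Each column of the value table matched the values of a single scanner file with a correlation of 1, and the next best file reached at most 0.52, which shows the file each column was made from but not which naming is right. Arrays were named by the table here. Named that way, 20 probes had a gap of 8-fold or more between the 4 arrays of a cow and the remaining 8 arrays, and 0 probes had such a gap when arrays were named by the file records. A cow named by the table is also a whole slide, so differences between slides would give such gaps too. These counts therefore do not settle the naming. Under the file records limma called 0 of the 46 transporters tested in each comparison (1 to 3 at an unadjusted p under 0.05), and every count and direction below rests on the names in the table. By the table each cow was hybridised on a slide of its own and each day at a position of its own, so cow and slide cannot be told apart, nor can day and position. The share of probes well above background was 63.17% for cow 3 on day 2 and 71.31% to 76% on the other 11 arrays. All 9 of the epithelial markers measured were above background on every array, with a summed signal of 30.1 to 93.6 times the array's 75th percentile on day 2, 45.2 to 79.5 on day 7 and 55.8 to 70.3 on day 14, against 56.4 to 70.5 on day 0. The lowest of these, 30.1, was cow 3 on day 2, the array with the fewest probes above background.

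More transporters were called on day 7 than on day 2 or day 14. Compared with day 0, 15 of the 46 tested genes were called on day 7, 10 higher and 5 lower, 2 on day 2 and 1 on day 14. On day 7 this is 32.6% of the transporters, beside 19.3% of the 12896 named genes tested, 10.9% of which were higher and 8.34% lower. On day 2 it is 4.35% of the transporters beside 2.9% of genes, and on day 14 it is 2.17% beside 0.101%, where the transporter count is a single gene. The median size of a transporter's change, whatever its sign, was 0.77 on day 7, 0.52 on day 2 and 0.58 on day 14, against 0.42, 0.3 and 0.3 over all named genes. The 3 comparisons share the day 0 arrays, so their counts are not independent of one another. The members were taken by name, but that choice was made with earlier results of these data known. The difference in share from other genes was not tested.

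**Figure D1:**
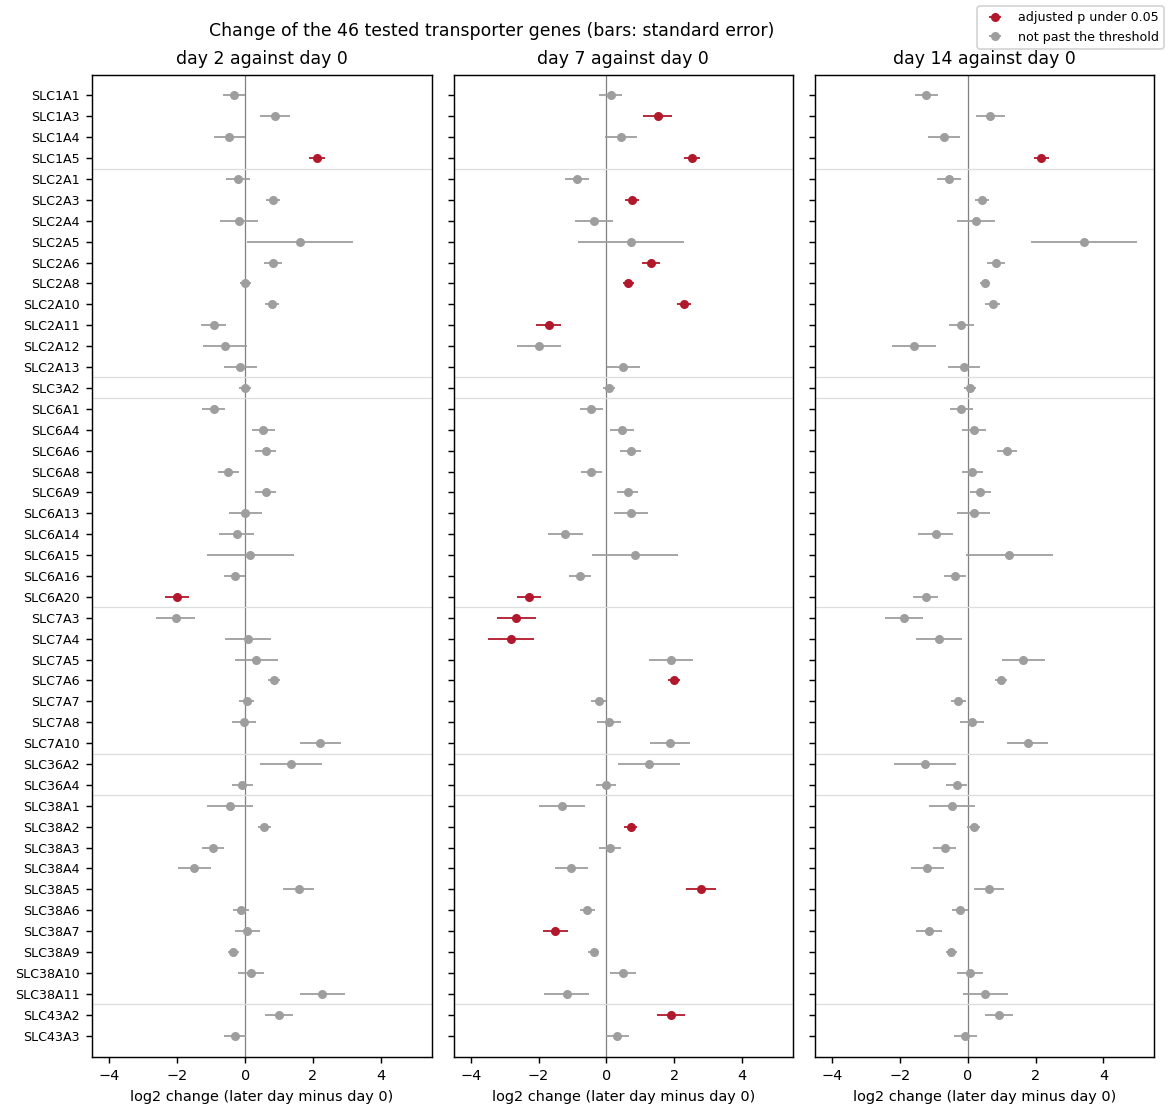
log2 change of each of the 46 tested transporter genes on day 2, day 7 and day 14 against day 0 (x axis, later day minus day 0), by family from top to bottom. Points are estimates from 3 cows a day, bars are standard errors and red points have an adjusted p under 0.05: 2 on day 2, 15 on day 7 and 1 on day 14.

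SLC1A5 (ASCT2), a sodium-dependent exchanger that brings glutamine and other small neutral amino acids into dividing cells, was the transporter called on all 3 later days. Its probe lies at chr18:53657682-53657741 on the minus strand of the Btau_3.1 assembly. On day 7 it read 1.29, 1.39 and 0.41 in cows 1, 2 and 3, against -1.01, -1.15 and -2.30 on day 0, and every set of 3 values below is in that order. The days did not overlap, and in each cow the signal was higher by over 2 log2 units. The rise was 2.52 ± 0.23 (log2, SE, n = 3 cows), or 5.72-fold, with an adjusted p of 0.00191 from limma. On day 2 it read 1.32, 1.02 and -0.43, which is 2.12 ± 0.23 above day 0 (adjusted p = 0.0116, limma), and on day 14 it read 0.85, 1.55 and -0.36, which is 2.17 ± 0.23 above (adjusted p = 0.0279, limma). Cow 3 was the lowest on every one of the 4 days.

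Its relatives differed. SLC1A3 (EAAT1), an importer of glutamate and aspartate, read -2.37, -0.72 and -1.01 on day 7, against -3.57, -2.34 and -2.73 on day 0. Each cow was higher on day 7, though the days overlapped because cow 1 on day 7 lay below cow 2 on day 0. The rise of 1.51 ± 0.43 passed the threshold narrowly (adjusted p = 0.0436, limma). It kept its sign but was not called in 8 of 15 alternatives, among them the mean over the gene's probes. SLC1A4 (ASCT1), an exchanger of alanine, serine and cysteine, changed by 0.43 ± 0.46 on day 7 (adjusted p = 0.54), with a 95% interval of -0.61 to 1.47. SLC1A1 (EAAT3), a glutamate importer of epithelia, was 0.12 ± 0.33 from day 0 on day 7 (adjusted p = 0.83) and -1.22 ± 0.33 on day 14 (adjusted p = 0.109), where it read 2.03, 2.05 and 2.49, against 3.1, 3.31 and 3.8 on day 0. The day 14 values of SLC1A1 lay below all 3 of day 0 and still did not pass the threshold.

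SLC38A5 (SNAT5), a sodium-coupled carrier of glutamine, histidine, asparagine and serine, had the largest rise on day 7. It was read by 3 probes that the files place on no chromosome of Btau_3.1 and that were all called. Their sequences are given because they share runs of at most 7 bases with each other and moved together:
SLC38A5 A_73_P051871: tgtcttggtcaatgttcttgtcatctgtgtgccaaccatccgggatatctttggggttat
SLC38A5 A_73_P132086: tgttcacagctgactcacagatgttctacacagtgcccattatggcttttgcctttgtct
SLC38A5 A_73_P270616: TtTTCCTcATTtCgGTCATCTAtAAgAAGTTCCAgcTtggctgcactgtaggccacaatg
SLC38A3 A_73_P102526: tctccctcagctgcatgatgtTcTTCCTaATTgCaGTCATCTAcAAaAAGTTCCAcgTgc
The last belongs to SLC38A3 (SNAT3), the closest relative of SLC38A5, and lies on the minus strand at chr22:51042048-51042276 with a gap, since 60 bases cover that span. Capitals mark the bases that the third SLC38A5 probe and the SLC38A3 probe have in common where they are laid side by side without gaps: 29 of the 39 that face each other, with a longest shared run of 8.

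The brightest SLC38A5 probe, A_73_P051871, read -2.09, -1.32 and -0.56 on day 7, against -4.49, -2.99 and -4.86 on day 0. No day 7 value reached down to day 0, and cow 3 was the highest of the 3 on day 7 and the lowest on day 0. The change was 2.79 ± 0.45, or 6.93-fold (adjusted p = 0.00804, limma), and the other 2 probes gave 2.50 ± 0.45 and 2.64 ± 0.44. On days 2 and 14 the same probe was 1.58 ± 0.45 (adjusted p = 0.104) and 0.62 ± 0.45 (adjusted p = 0.463) above day 0, and neither was called. The SLC38A3 probe printed above was not above background on any array, and SLC38A3's brightest probe changed by 0.11 ± 0.33 on day 7 (adjusted p = 0.845).

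Other SLC38 members went both ways. SLC38A2 (SNAT2), a carrier of small neutral amino acids that cells make more of when amino acids are short, read 3.00, 3.34 and 3.20 on day 7, against 2.23, 2.25 and 2.94 on day 0. Its rise of 0.71 ± 0.19 was smaller but called (adjusted p = 0.0393, limma), and of its 4 other probes 2 were called with 0.72 and 0.73, while the other 2 gave 0.46 and 0.12. SLC38A7, a lysosomal exporter of glutamine and asparagine, read -0.86, -0.71 and -0.48 on day 7, against 0.80, 0.84 and 0.84 on day 0. All 3 cows lay more than 1 unit lower on day 7, a fall of 1.51 ± 0.37 on the log2 scale (adjusted p = 0.0281, limma). The only other SLC38A7 probe tested, above background on 5 arrays, also read lower on day 7 but was not called. SLC38A9, the lysosomal arginine sensor that acts on mTORC1, gave a different answer by probe. Its brightest probe read -1.53, -1.28 and -1.45 on day 7, against -0.99, -1.25 and -0.88 on day 0, and its change of -0.38 ± 0.16 was not called (adjusted p = 0.134). Its 2 dimmer probes fell by 1.13 ± 0.21 and 1.01 ± 0.23 and were called (adjusted p = 0.0126 and 0.0211, limma). SLC38A1 (SNAT1), a glutamine carrier, read -6.48, -6.00 and -5.84 on day 7, against -4.42, -4.01 and -5.97 on day 0, and did not pass (-1.31 ± 0.68, adjusted p = 0.207).

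Among the light chains that pair with a heavy chain, SLC7A6 (y+LAT2), which exchanges arginine or lysine from inside the cell for glutamine and sodium, was called. It read -3.29, -2.80 and -3.28 on day 7, against -5.61, -4.80 and -4.98 on day 0. All 3 cows were higher and the days did not overlap, and the rise was 2.00 ± 0.18, or 4.01-fold (adjusted p = 0.00191, limma). Its probe lies at chr18:34691677-34691736 on the plus strand of Btau_3.1. The only other tested probe of the gene was above background on 1 of 3 day 7 arrays and on none of day 0. It read higher on day 7 and was called (adjusted p = 0.017, limma), but most of these readings are background and give no size of change. That probe passed the filter through the later days alone. SLC7A6OS, read by a probe on the minus strand at chr18:34693894-34693953, was lower on day 7 by 0.72 on the log2 scale (SE 0.19, adjusted p = 0.0347, limma), so the neighbours on opposite strands moved in opposite directions. SLC43A2 (LAT4), which needs no heavy chain and lets branched-chain amino acids and phenylalanine pass in both directions, read 0.19, -0.30 and 0.19 on day 7, against -2.16, -1.60 and -1.82 on day 0. Its rise was 1.89 ± 0.41 (adjusted p = 0.0195, limma), and the days did not overlap.

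SLC7A5 (LAT1), the main importer of leucine and other large neutral amino acids in dividing cells, stood at the edge of the threshold. Its brightest probe read 1.72, 3.46 and 3.82 on day 7, against 1.09, 0.62 and 1.56 on day 0. Every day 7 value was above every day 0 value, but cow 1 differed by 0.62 and cow 2 by 2.84 units, and the change of 1.9 ± 0.64 was not called (adjusted p = 0.0737). A second SLC7A5 probe was called with 2.07 ± 0.60 (adjusted p = 0.0473, limma), and the third gave 1.16 ± 0.52 (adjusted p = 0.152). SLC3A2 (4F2hc), the heavy chain of SLC7A5 and SLC7A6, read 2.07, 2.43 and 2.02 on day 7, against 2.17, 2.08 and 2.05 on day 0. Its change was 0.07 ± 0.17 (adjusted p = 0.792), with a 95% interval of -0.32 to 0.47, and on days 2 and 14 it was -0.01 and 0.06. SLC7A7 (y+LAT1) and SLC7A8 (LAT2), which use the same heavy chain, were not called either, at -0.23 ± 0.22 and 0.07 ± 0.35 on day 7. SLC7A10 (Asc-1), a carrier of small neutral amino acids and D-serine, was higher in all 3 cows on each later day without passing: 2.21 ± 0.60 on day 2, 1.87 ± 0.60 on day 7 and 1.77 ± 0.60 on day 14 (adjusted p = 0.0937, 0.0645 and 0.163). SLC7A11 (xCT), the cystine importer, was above background on no array.

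In the SLC7A group without a heavy chain, the cationic amino acid transporters and their relatives, the 2 genes that could be tested fell. SLC7A4, an orphan relative of these carriers, was read by 2 probes from different places of the gene. They are given because both read lower in the 3 cows on day 7 while only the brighter was called:
SLC7A4 A_73_P071391: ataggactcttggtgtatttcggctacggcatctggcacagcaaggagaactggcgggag
SLC7A4 A_73_P438626: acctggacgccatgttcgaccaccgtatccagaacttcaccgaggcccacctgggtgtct
Both lie on the minus strand of Btau_3.1, the first at chr17:75735157-75735333 with a gap and the second at chr17:75737161-75737220. The first, and brighter, read -3.47, -2.54 and -1.96 on day 7, against 0.42, 0.48 and -0.45 on day 0. The days were far apart and cow 1 moved most. The fall was 2.81 ± 0.67 on the log2 scale, or 6.99-fold (adjusted p = 0.0265, limma), and the second probe gave -1.89 ± 0.60 (adjusted p = 0.0614). SLC7A3 (CAT3), an importer of arginine and lysine, read -5.24, -7.11 and -7.19 on day 7, against -4.25, -4.18 and -3.13 on day 0. It was above background in 1 of 3 cows on day 7 and in 3 of 3 on day 0, so the fall of 2.66 ± 0.57 (adjusted p = 0.0187, limma) ends near the detection limit. SLC7A1 and SLC7A2, further importers of cationic amino acids, were not tested and were above background on no array and on 1 array.

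In the SLC6 family, 1 of 10 tested members was called. SLC6A20 (SIT1), an importer of proline and other imino acids, read -2.68, -3.08 and -3.93 on day 7, against -0.13, -0.77 and -1.92 on day 0. Each cow was at least 2 units lower, the days did not overlap, and the fall was 2.29 ± 0.36 on the log2 scale, or 4.9-fold (adjusted p = 0.00764, limma). SLC6A14 (ATB0,+), a broad importer of neutral and cationic amino acids, read -3.97, -4.00 and -2.19 on day 7, against -2.28, -1.83 and -2.41 on day 0. Cows 1 and 2 were lower and cow 3 was not, and the change of -1.21 ± 0.52 was not called (adjusted p = 0.135). The taurine carrier SLC6A6 (0.71 ± 0.30, adjusted p = 0.133) and the creatine carrier SLC6A8 (-0.45 ± 0.31, adjusted p = 0.333) did not pass on day 7. For the glycine carrier SLC6A9 (0.63 ± 0.31, adjusted p = 0.182, limma) the array name covers a second locus, named LOC515755 in RefSeq. The brightest probe, which gave this change, shares a run of at most 16 bases with a probe of that locus. A dimmer SLC6A9 probe shares a run of 50 with it, so signals of the copies cannot be told apart there.

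In the SLC2 family, which holds the glucose and hexose carriers and the myo-inositol carrier SLC2A13, 4 of 10 tested genes rose on day 7 and 1 fell. SLC2A10 (GLUT10), whose loss causes arterial tortuosity syndrome in humans, read -3.22, -2.98 and -3.32 on day 7, against -5.47, -5.31 and -5.57 on day 0. The cows lay close together on both days, and the rise was 2.28 ± 0.21, or 4.85-fold (adjusted p = 0.00191, limma). Its probe lies at chr13:76153545-76153604 on the plus strand. A second SLC2A10 probe, upstream on the same strand at chr13:76148403-76148462, rose by 0.74 ± 0.19 (adjusted p = 0.0306, limma), so the probes agree in direction and differ in size. SLC2A6 (GLUT6), found on lysosome membranes in mouse macrophages, read -0.35, -0.14 and -0.84 on day 7, against -1.98, -1.69 and -1.64 on day 0. It rose by 1.32 ± 0.26 (adjusted p = 0.0148, limma), with no overlap, and its second probe by 0.75 ± 0.18 (adjusted p = 0.026). The second probes of both genes are given, since each carried the call a second time:
SLC2A10 A_73_P333541: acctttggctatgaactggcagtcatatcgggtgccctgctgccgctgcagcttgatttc
SLC2A6 A_73_P335806: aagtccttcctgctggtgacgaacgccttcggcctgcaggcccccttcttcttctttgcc
The SLC2A6 sequence lies on the minus strand at chr11:108290162-108291094 with a gap.

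SLC2A3 (GLUT3), a carrier with a high affinity for glucose, read 0.84, 0.98 and 0.65 on day 7, against -0.17, 0.10 and 0.29 on day 0. It rose by 0.75 ± 0.21 (adjusted p = 0.0415, limma), and of its 2 other tested probes 1 was called with 0.88 and 1 was not, with 0.38. SLC2A8 (GLUT8), a carrier of inner membranes, read 1.82, 1.68 and 1.29 on day 7, against 0.96, 1.11 and 0.82 on day 0, a rise of 0.64 ± 0.16 (adjusted p = 0.0282, limma). Neither gene overlapped between the days. The other SLC2A8 probe also read higher on day 7 but was not called. SLC2A8 kept its sign but was not called in 6 of 15 alternatives. SLC2A11 (GLUT11) read -5.97, -7.34 and -5.75 on day 7, against -4.07, -4.71 and -5.19 on day 0. It fell by 1.70 ± 0.37 on the log2 scale (adjusted p = 0.0194, limma), and only 1 of 3 day 7 arrays was above background, against 3 of 3 on day 0. Its only probe, at chr17:74569579-74569638 on the plus strand, is given because the call rests on it alone:
SLC2A11 A_73_107502: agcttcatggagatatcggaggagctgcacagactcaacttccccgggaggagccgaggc

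SLC2A1 (GLUT1), the basal glucose carrier of most tissues, was not called on any day. It read 1.06, 1.59 and 1.16 on day 7, against 2.16, 2.08 and 2.17 on day 0. All 3 cows were lower on day 7 and the days did not overlap, yet the change of -0.87 ± 0.35 missed the threshold (adjusted p = 0.117), and its 2 other probes gave -0.63 and -0.52. SLC2A12 (GLUT12) read -4.20, -6.01 and -4.54 on day 7, against -2.92, -3.20 and -2.69 on day 0, and its change of -1.98 ± 0.65 was not called (adjusted p = 0.0675). Of the remaining families, the proton-coupled carrier SLC36A2 was above background in 2 of 3 cows on day 7 and in none on day 0, but cow 1 read lower on day 7, the days overlapped, and the change was not called (adjusted p = 0.366). SLC36A4 was -0.01 ± 0.30 from day 0.

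**Figure D2:**
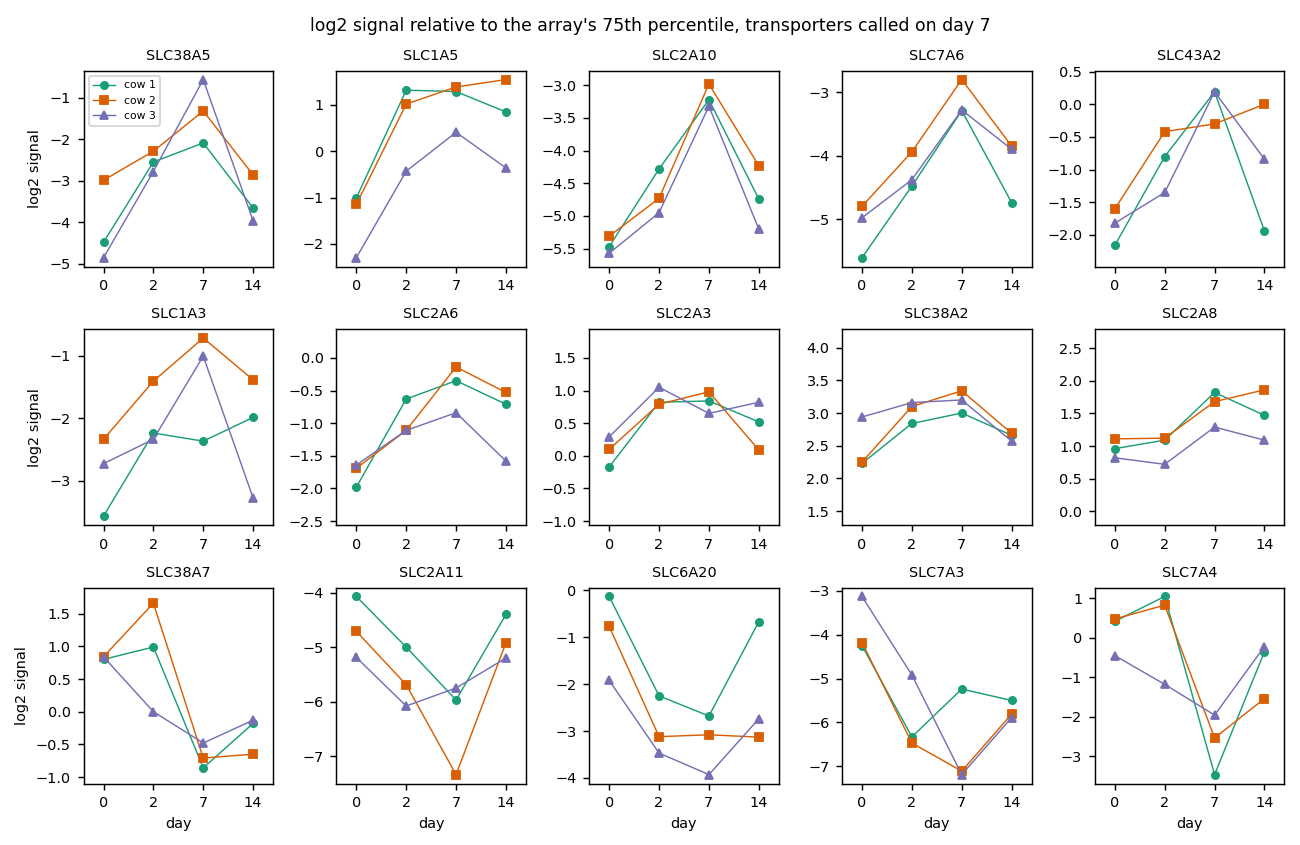
log2 signal relative to the array's 75th percentile (y axis, at least 3 units in every panel) on days 0, 2, 7 and 14 (x axis, evenly spaced) for the 15 transporters called on day 7, each line being 1 cow. In the upper 10 panels every cow lies higher on day 7 than on day 0, in the lower 5 every cow lies lower, and only SLC1A5 was also called on day 14.

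These day 7 calls depend on the cows in the fit. With cow 1 left out limma called 0 transporters, though 16 had an unadjusted p under 0.05. With cow 2 left out it called 2, SLC1A5 and SLC2A10. With cow 3 left out it called 16, of which 12 were among the 15. The fit that ignored which cow a biopsy came from called 12 of the 15, and a fit to the arrays of days 0 and 7 alone called 7 of them.

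Some markers of other cells were called on day 7 as well, and their part in these results was not tested. Over all named genes 10.9% were higher and 8.34% lower on that day, and no marker list was tested against them. Of the 9 macrophage markers measured, 5 rose, CD14 by 1.81 ± 0.43, and their summed signal, in multiples of the array's 75th percentile, was 4.84 to 16.7 on day 7 against 3.43 to 3.98 on day 0. Of the 8 smooth muscle markers 3 rose, TAGLN by 3.13 ± 0.62, with sums of 178 to 366 on day 7 against 63.9 to 86.7 on day 0. Of the 8 neutrophil markers measured, 6 were tested and 1 rose, S100A12 by 2.54 ± 0.39, with sums of 1.42 to 5.37 against 0.731 to 1.32, while CXCR2 was above background on no array. Among T and NK cell markers 2 of 9 tested rose, among endothelial markers 2 of 8 rose, among ciliated cell markers 1 of 8 fell and among red blood cell markers 1 of 4 fell. Of the 9 stromal fibroblast markers limma called 0 (1 at an unadjusted p under 0.05), with sums of 217 to 250 on day 7 against 181 to 186 on day 0. It also called 0 of 9 epithelial markers (2 at that p) and 0 of 5 tested B and plasma cell markers (0 at that p). Within the biopsies, fewer cells of a type and less RNA per cell cannot be told apart.

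On day 2, SLC1A5 was higher, as given above, and SLC6A20 was lower. SLC6A20 read -2.25, -3.12 and -3.47 on day 2, against -0.13, -0.77 and -1.92 on day 0, a fall of 2.01 ± 0.36 on the log2 scale (adjusted p = 0.0348, limma). These were the 2 transporters called. The largest change that was not called belonged to SLC38A11, a sodium-coupled relative of the SNAT carriers whose substrate is little known. It read -1.9, -0.43 and -1.77 on day 2, against -3.53, -2.63 and -4.77 on day 0, with no overlap (2.27 ± 0.66, adjusted p = 0.108). SLC7A10, given above, SLC7A3 (-2.05 ± 0.57, adjusted p = 0.0974), SLC2A5 (1.61 ± 1.56, adjusted p = 0.592) and SLC38A5 followed in size. SLC38A4, a carrier of neutral and cationic amino acids, was above background in no cow on day 2 and in all 3 on day 0. It was not called (adjusted p = 0.134, limma). With day 2 readings raised to at least the dimmest detected signal of their array, its day means lay 2.03-fold apart. As read, the 3 cows differed by -0.46, -0.99 and -3.05 log2 units, most in cow 3. Of the 46 transporters 16 had an unadjusted p under 0.05. Without the cow block limma called 0 (15 at an unadjusted p under 0.05), with cow 1 or cow 2 left out also 0 (9 and 10 at that p), and without the day 2 array of cow 3, which had the fewest probes above background, it called 1. SLC6A20 also missed the threshold without cow 3 (adjusted p = 0.0914), without that array (adjusted p = 0.0643), after normexp with quantile normalisation (adjusted p = 0.0503) and in the fit to days 0 and 2 alone (adjusted p = 0.0501), all from limma.

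On day 14, SLC1A5 was the single call, and 15 of the 46 transporters had an unadjusted p under 0.05. The 15 transporters called on day 7 all had the same sign on day 14 and all lay nearer to day 0. They were chosen by their day 7 values. SLC2A10 was 0.73 ± 0.21 above day 0 on day 14 (adjusted p = 0.122), SLC7A6 was 0.97 ± 0.18 above (adjusted p = 0.0649), SLC38A7 was -1.14 ± 0.37 from it (adjusted p = 0.149) and SLC6A20 was -1.24 ± 0.36 from it (adjusted p = 0.125). The largest changes that were not called on day 14, beside SLC7A10, were those of SLC2A5, SLC7A3 (-1.88 ± 0.57, adjusted p = 0.132), SLC7A5 (1.64 ± 0.64, adjusted p = 0.204) and SLC2A12 (-1.58 ± 0.65, adjusted p = 0.222). In SLC6A20 cow 1 had come back to -0.67, while cows 2 and 3 read -3.13 and -2.74. Without the cow block limma called 0 on day 14 (14 at an unadjusted p under 0.05), and with cow 1, cow 2 or cow 3 left out also 0 (9, 9 and 16 at that p).

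SLC2A5 (GLUT5), a fructose carrier, had a wide spread between cows. It read -7.18, -2.65 and -0.39 on day 14, against -8.30, -4.66 and -7.51 on day 0. It was above background in 2 of 3 cows on day 14 and in 1 of 3 on day 0, so the lowest of these readings are background and give no size of change within a cow. Its change of 3.42 ± 1.56 was not called (adjusted p = 0.261, 95% interval -0.16 to 6.99). SLC2A4 (GLUT4), the insulin-responsive carrier of muscle and fat, differed by cow rather than by day. It read -3.85, -3.94 and -0.05 in cows 1, 2 and 3 on day 2, against -2.37, -2.96 and -2.0 on day 0. In cow 3 the later values were -1.55 on day 7 and -1.05 on day 14, above those of the other 2 cows on every day. The summed smooth muscle signal in cow 3 was 527 on day 2, 366 on day 7 and 402 on day 14, also the highest of each day, against 86.7 on day 0. The part of muscle in the biopsies of cow 3 in the SLC2A4 signal was not tested.

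**Figure D3:**
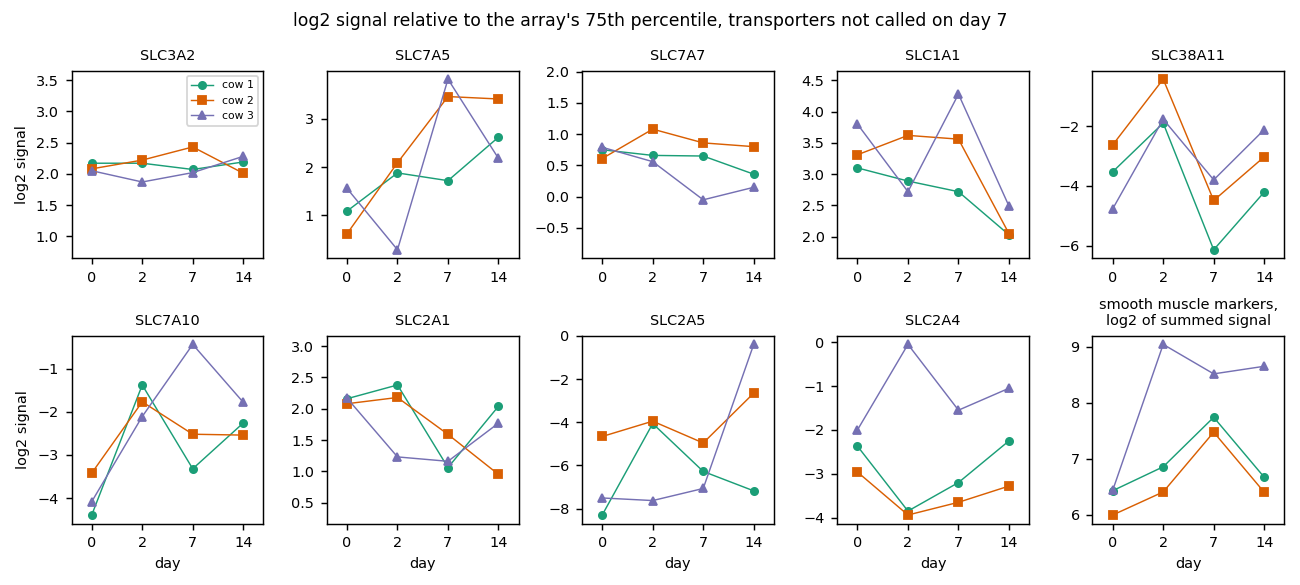
log2 signal relative to the array's 75th percentile (y axis) on days 0, 2, 7 and 14 (x axis, evenly spaced) for 9 transporters not called on day 7, each line being 1 cow, and, in the last panel, log2 of the summed signal of 8 smooth muscle markers. SLC3A2 stays between 1.87 and 2.43 on all 12 arrays, SLC2A5 spans -8.30 to -0.39, and SLC2A4 of cow 3 is highest on day 2, as is its smooth muscle sum.

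Between the later days, few transporters passed. On day 7 against day 2 SLC2A10 was higher by 1.48 ± 0.21 (adjusted p = 0.0367, limma) and SLC7A6 by 1.14 ± 0.18 (adjusted p = 0.0488), 2 of 46 transporters or 4.35%, beside 0.527% of named genes. SLC38A11 had the largest difference between these days, -6.14, -4.49 and -3.80 on day 7 against -1.9, -0.43 and -1.77 on day 2, and did not pass (-3.44 ± 0.66, adjusted p = 0.0638). On day 14 against day 7 SLC2A10 was the only call, reading -4.74, -4.23 and -5.20 on day 14 against -3.22, -2.98 and -3.32 on day 7 (-1.55 ± 0.21, adjusted p = 0.0489, limma). That is 2.17% of transporters beside 0.14% of genes. SLC38A5 changed by -2.17 ± 0.45 between these days and did not pass (adjusted p = 0.0779). Leaving out cow 1 or cow 2 ended all of these calls, with 9 or 10 transporters at an unadjusted p under 0.05 in limma, and leaving out cow 3 gave 7 calls on day 7 against day 2 and 0 on day 14 against day 7 (14 at that p). In limma's F-test over all 4 days 5 transporters were called, SLC1A5, SLC2A10, SLC7A6, SLC6A20 and SLC38A5 (adjusted p = 0.00958, 0.0102, 0.0103, 0.0284 and 0.031), 10.9% beside 8.33% of named genes. Without cow 1 or cow 2 that count was 0 (13 and 9 at an unadjusted p under 0.05), and without cow 3 it was 10.

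Other probes of the same genes give a check within each array. On day 7, 36 of the 39 other tested probes had the sign of their gene's brightest probe. For the genes called on day 7 there were 15 such probes, all 15 with the same sign and 8 of them past the threshold, SLC7A6's with no day 0 array above background among them. Probes of a gene share their samples, and SLC6A9's also share bases, so they are not replicates.

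**Figure D4:**
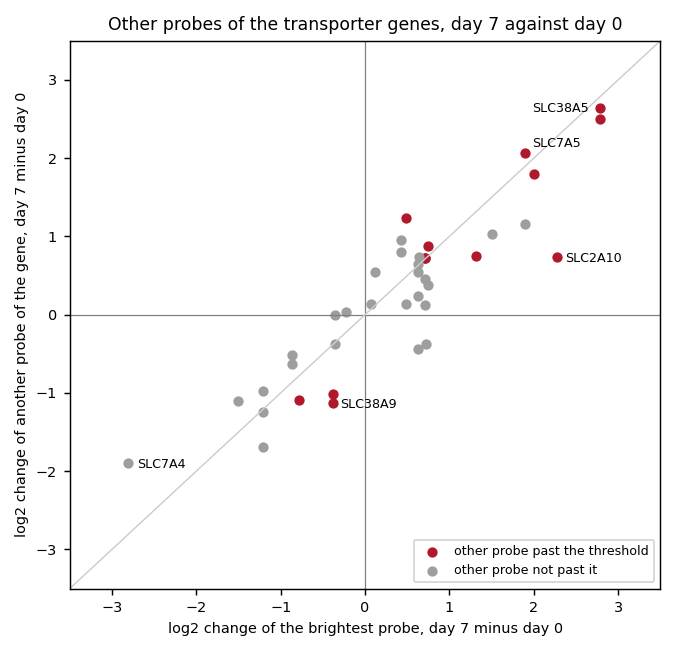
log2 change on day 7 against day 0 of each other tested probe of a transporter gene (y axis) against that of the gene's brightest probe (x axis), with the line of equal change in grey. Of 39 points 36 have the same sign on both axes. SLC38A5 lies near the line, SLC2A10 below it, and the SLC38A9 points are past the threshold where its brightest probe is not.

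The genes around the transporters were counted in 7 lists on day 7. Of 28 glycolysis genes tested 10 rose and 1 fell, with a median change of 0.57. Among them were the monocarboxylate carriers SLC16A1 (1.41 ± 0.24), which takes lactate across the membrane, and SLC16A3 (1.27 ± 0.22), which exports it, and PFKP (1.34 ± 0.17), a phosphofructokinase. PFKFB2, whose enzyme sets the level of fructose 2,6-bisphosphate, fell by 2.33 ± 0.54 on the log2 scale. Of 16 glycogen and polyol genes 3 fell and none rose: PYGL, the liver form of glycogen phosphorylase, by 1.61 ± 0.36, KHK, which phosphorylates fructose, by 1.41 ± 0.28, and SORD, which makes fructose from sorbitol, by 0.89 ± 0.18.

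The list of the response to amino acid shortage and serine synthesis had 7 of 21 genes higher and 3 lower. TRIB3 (2.11 ± 0.35) and ATF3 (2.06 ± 0.49) were among those that rose. The serine synthesis enzymes moved apart: PHGDH fell by 3.04 ± 0.67 and PSAT1 by 2.21 ± 0.31, while PSPH, which acts after them, rose by 1.58 ± 0.22. Of 25 enzymes that use transported amino acids 3 rose and 2 fell. SRM, which makes spermidine, rose by 2.36 ± 0.28 and OAT, which turns ornithine towards proline, by 1.76 ± 0.23, while PRODH, which breaks down proline, fell by 6.12 ± 1.29. Of 23 genes of mTORC1 and its amino acid sensing 1 fell, LAMTOR5, by 0.54 ± 0.15. Of 16 amino acid and peptide carriers of other families limma called 0 (5 at an unadjusted p under 0.05), and of 10 sugar carriers of other families 0 (3 at an unadjusted p under 0.05). Over all named genes 10.9% were higher and 8.34% lower on day 7, and no list was tested against them.

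On day 2 limma called 3 of 28 genes in glycolysis, 2 of 21 in the amino acid response, 1 of 25 among the enzymes and 1 of 10 among the other sugar carriers, beside 2.9% of named genes. In each of the other 3 lists it called 0, with 2 or 3 genes at an unadjusted p under 0.05. PFKP (1.05 ± 0.17), PGAM1 (0.73 ± 0.14) and SLC16A1 (1.18 ± 0.24) rose in glycolysis, TRIB3 (2.19 ± 0.35) and PSPH (1.35 ± 0.22) in the amino acid response, and SRM (1.37 ± 0.28) among the enzymes. SLC45A1, a sugar carrier of another family, fell by 1.34 ± 0.25. On day 14 limma called 0 genes in each of the 7 lists, and 0 to 8 genes of a list had an unadjusted p under 0.05.

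**Figure D5:**
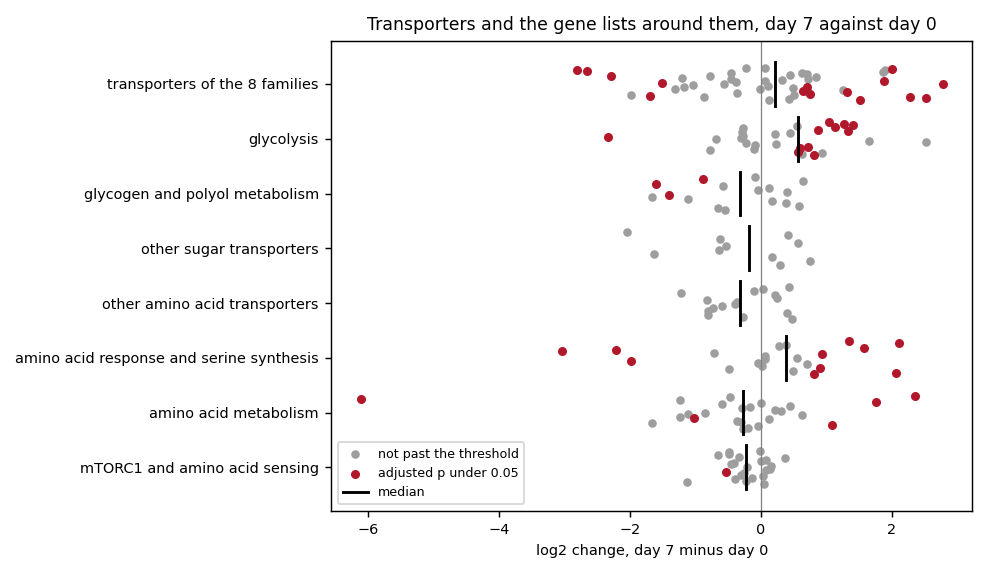
log2 change on day 7 against day 0 (x axis) of each tested gene, for the transporters and for 7 lists of genes around them (y axis). Red points have an adjusted p under 0.05 and black bars are medians, 0.22 for the transporters, 0.57 for glycolysis and 0.39 for the amino acid response.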

How the data were processed

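Endometrial RNA of 3 cows on 4 days was hybridised to 12 Agilent arrays of 1 colour (Cy3). Per the file headers, the deposited intensity values (processed signals) came from Agilent Feature Extraction 11.5.1.1, which subtracts background, with probe positions on Btau_3.1; the submitters' processing notes name version 10.5.1.1. The deposited value table holds log2 values that the authors centred on each probe's median over the 12 arrays and on each array's 75th percentile, as found by setting it against the scanner files. It was used to name the arrays and as an alternative.

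From the intensities, log2 values were averaged over the spots of a probe, without 1417 control spots and 31 probes with an outlier flag, and the 75th percentile of each array was subtracted. No spot of a kept probe was saturated. Intensities at that percentile were 824 to 1116.5 units. The number of arrays limits the precision. limma 3.58.1 in R 4.3.3 fitted day with cow as a block to all 12 arrays (residual degrees of freedom 6, prior 2.33), two-sided, and p was adjusted by Benjamini-Hochberg over 33539 probes. Same-numbered biopsies come from the same cow by the sample titles. Their deviations from the day means correlated at 0.285 on average over 18 pairs, against -0.136 over 36 pairs of different cows. Each cow is also a slide, so a slide difference would give such a correlation too. Deviations from a day mean cancel out within the day, so the value for different cows tends to mirror that for the same cow with the opposite sign. It is therefore no independent comparison.

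Genes named in the text are those past the threshold for a day against day 0 (at most 12 in each direction), the 5 largest changes that did not pass, main carriers of each role, and up to 4 called genes of each list; SLC38A3, SLC38A4, SLC6A9, SLC36A4 and PSPH were chosen after their values were seen. The members and lists were chosen with earlier results of these data known. The replicates are 3 cows. Fitting was tested on simulated data. RefSeq symbols were matched for 32424 of 43653 probes and no coordinates were taken from RefSeq. Alternatives are listed in the closing section.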

Additional observations from a re-analysis of the deposited data

How the results depend on the processing

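Counts of called transporters are given here as day 2, day 7 and day 14 against day 0, day 7 against day 2, day 14 against day 7, and the F-test over all days; they were 2, 15, 1, 2, 1 and 5 as reported. The deposited value table and the naming by RefSeq symbols gave the same 6 counts. Without the replicate block the counts were 0, 12, 0, 1, 0 and 4; the cow pairs the biopsies by design. With arrays named by the scanner file records all 6 were 0 (1, 1, 3, 2, 2 and 2 transporters at an unadjusted p under 0.05), and some directions turned: SLC1A5 to -0.29 on day 2, -0.32 on day 7 and -0.66 on day 14, SLC6A20 to 0.16 on day 2, and SLC2A3 to -0.04 and SLC7A10 to -0.01 on day 7. Array weights gave 13, 23, 1, 15, 17 and 33, and turned SLC2A5 on day 14 to -0.09. Quantile scaling gave 2, 14, 1, 1, 0 and 7, normexp with quantile normalisation 1, 18, 2, 3, 2 and 12, no filter on dim probes 2, 12, 1, 0, 0 and 5, and probes above background on all 12 arrays 3, 13, 2, 2, 2 and 9. The mean over a gene's probes gave 2, 16, 1, 0, 0 and 7, and fits to only the 2 days compared 2, 7, 0, 0 and 0. Without the day 2 array of cow 3 (replicate 3) the counts were 1, 14, 1, 1, 0 and 9. Leaving out a cow gave 0 to 2 on day 2, 0 to 16 on day 7, 0 on day 14, 0 to 7 for day 7 against day 2, 0 for day 14 against day 7 and 0 to 10 in the F-test. A fit to 2 cows has fewer samples, and otherwise the cause was not tested. Signal over background limits SLC36A2, SLC38A4, SLC2A5, SLC7A3 and SLC2A11, above background on 4, 5, 6, 8 and 9 of the 12 arrays.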
